A study of Drosophila melanogaster with 36 samples.

Results

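The genes eyes shut (eys), chaoptin (chp) and crumbs (crb) encode proteins that shape the light-sensing surface of the fly photoreceptor. They were taken from the arrays by their platform gene symbol, and each gene was represented by its probe set of highest mean over all arrays. The 3 genes held 6 of the 18769 probe sets for fly genes and were 3 of the 11982 genes with a representative probe set. eys (locus tag CG33955) had 4 probe sets and was represented by 1633714_at, while chp (CG1744) and crb (CG6383) had 1 each, 1636344_at and 1628146_at. Expression was read from Affymetrix arrays of head RNA, 36 in all with 3 in each of 12 groups, and every sample pooled 20 heads.

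The 12 groups were 4 genotypes of Drosophila melanogaster at 3 ages. All 4 genotypes carried GMR-Gal4, a driver active in the developing and adult eye, together with a Gal80 repressor that is active at low temperature. Control flies carried these 2 elements, per the labels. The Atro line also carried a wild-type transgene of Atrophin (the product of the Gug gene), and the lines A66QC and A75QN carried transgenes with an expanded polyglutamine (polyQ) stretch. Flies developed at 18 °C with the transgene repressed. They were collected within 48 hours of eclosion and had their heads frozen either at once (day 0) or after 2 or 14 days of ageing at 29 °C, which switched the transgene on. Since the driver acts in the eye and whole heads were taken, RNA of cells outside the eye is part of every value. The labels leave the sex of the flies unstated. Whether the replicates of a group are separate cultures is unstated as well, and the p-values therefore cover the spread among these samples alone, which may be technical.

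A fly photoreceptor carries its light-sensing proteins in the rhabdomere, a stack of microvilli on its apical side. Chaoptin is a leucine-rich-repeat protein that is held on the cell surface by a lipid anchor and makes neighbouring microvilli adhere. Crumbs is a transmembrane protein of the stalk membrane, which joins the rhabdomere to the adherens junction, and it sets the extent of that membrane with partners that bind its short intracellular tail. Eyes shut, also called Spacemaker, is secreted from the apical side and opens the fluid-filled space between the rhabdomeres, where Prominin acts with it and Chaoptin acts against it. Human counterparts of eys and crb, EYS and CRB1, are genes of inherited retinal disease.

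Values are log2 expression as deposited, and differences are of group means on that scale, with the standard error (SE) and the adjusted p of limma's test. A difference is called where the p adjusted over all 18769 probe sets was under 0.05. Whether the arrays of groups overlap is given as a description and is not a test. The share of all probe sets without overlap was not counted. Array medians lay between 6.33 and 6.40, and group means under the highest of them are called near background. All 3 representative probe sets lay above it on every day in every genotype. The spike-in controls were brighter in A75QN on days 2 and 14, at a mean of 13.2 to 13.4, than on any other array, at 10.2 to 10.8. Every A75QN array of those days was brighter in this way, and those of day 0 were not. This array difference coincides with the line and day, and its part in A75QN results that use those days was not tested. The spread of values across an array was narrower in the polyQ lines at day 14 than in Control, with a mean SD of 1.52 in each polyQ line, 1.59 in Atro and 1.61 in Control. In 6 arrays the SD lay at least 5% off the median of its group. The probe set for the Gug gene was not called higher in any line. It was lower than in Control by a called amount in A66QC on day 0 (log2 difference -0.40, adjusted p = 0.0146) and day 14 (-0.31, adjusted p = 0.0493) and in A75QN on day 0 (-0.35, adjusted p = 0.0477). The files do not tell whether this probe set matches the transgenes, so it does not check the labels.

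**Figure D1:**
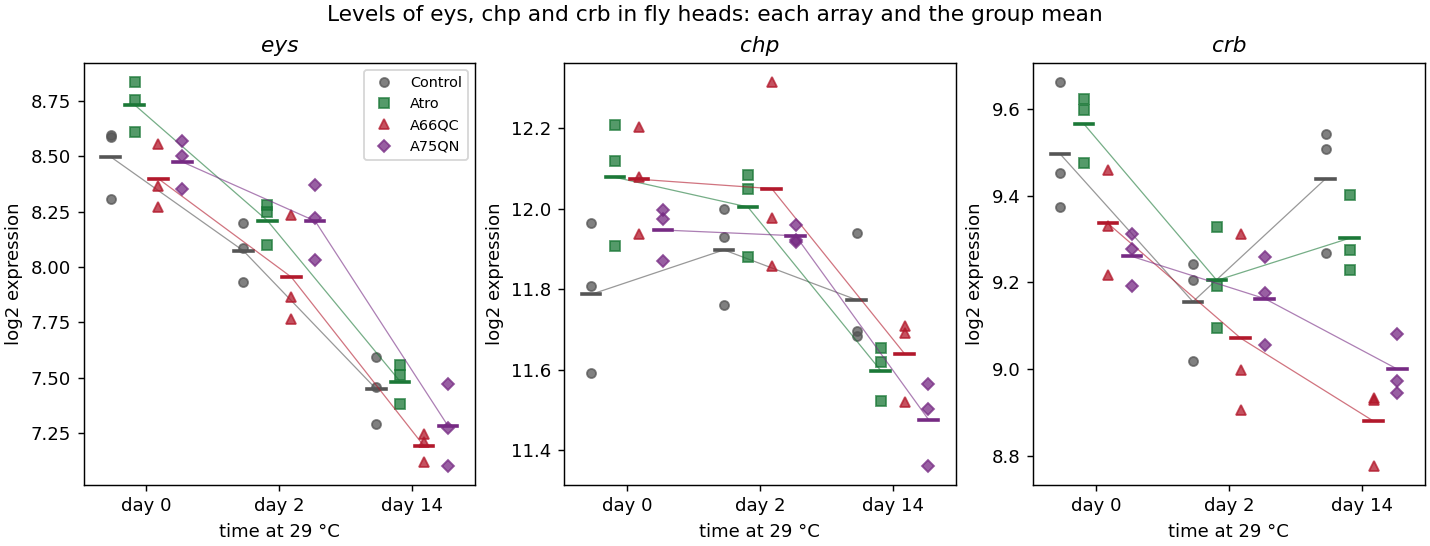
Log2 expression of eys, chp and crb on each array (points) against days at 29 °C, with the mean of the 3 arrays of a group (bars) joined by thin lines for the 4 genotypes; the vertical axes differ between panels and do not start at 0. eys drops from between 8.27 and 8.83 on day 0 to between 7.10 and 7.59 on day 14 in every genotype, and for crb the arrays of A66QC and A75QN lie below all Control arrays on day 14.

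The secreted member, eys, fell with age in all 4 genotypes, and no difference between a transgenic line and Control was called on any day. In Control flies its level was 8.31, 8.60 and 8.59 on day 0, 8.20, 7.93 and 8.09 on day 2, and 7.29, 7.46 and 7.59 on day 14. Each age lay below the previous one with no overlap between arrays. In Atro flies the level was 8.83, 8.61 and 8.75 on day 0, 8.25, 8.10 and 8.28 on day 2, and 7.51, 7.38 and 7.56 on day 14, again in 3 separate layers. In A66QC flies it was 8.37, 8.27 and 8.55 on day 0, 7.86, 7.77 and 8.23 on day 2, and 7.12, 7.21 and 7.24 on day 14. The day 2 arrays of A66QC were the most scattered of any eys group, with an SD of 0.25, but still lay between the other ages. In A75QN flies the level was 8.57, 8.35 and 8.50 on day 0, 8.22, 8.37 and 8.03 on day 2, and 7.27, 7.47 and 7.10 on day 14. Here the arrays of days 0 and 2 overlapped, while day 14 lay below both.

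From day 0 to day 14 eys fell by 1.05 on the log2 scale in Control (SE 0.11, adjusted p = 3.93e-09), which is a level that fell by 51.7%. It fell by 1.25 in Atro (adjusted p = 1.02e-10), by 1.21 in A66QC (adjusted p = 2.46e-10) and by 1.19 in A75QN (adjusted p = 2.29e-10). In these 4 comparisons 31.5%, 29.5%, 27.2% and 31.3% of all probe sets were called, in the order Control, Atro, A66QC and A75QN, so a change with age was common on these arrays. All 4 falls were called in each of the 14 alternatives that kept the probe set. Between days 0 and 2 Control flies had a log2 difference of -0.42 (adjusted p = 0.00417), Atro flies one of -0.52 (adjusted p = 0.000761) and A66QC flies one of -0.44 (adjusted p = 0.00345). In A75QN it was -0.27 (adjusted p = 0.0905), which was not called as deposited and was called in 6 of 14 alternatives, among them quantile normalization (-0.33) and cyclic loess (-0.37). The shares of all probe sets called between days 0 and 2 were 22.2%, 15.7%, 18.1% and 19.7% in the same order. From day 2 to day 14 Control flies showed a log2 difference of eys of -0.62 (adjusted p = 0.000124), Atro flies one of -0.73 (adjusted p = 7.61e-06), A66QC flies one of -0.76 (adjusted p = 4.28e-06) and A75QN flies one of -0.93 (adjusted p = 1.61e-07). Those intervals called 13.5%, 19.9%, 15.1% and 16.1% of all probe sets in the same order of genotypes. The call in A66QC between days 0 and 2 was lost with array weights, an alternative whose fit stopped before it converged.

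Against Control, the 9 comparisons of a line on a day gave no call for eys. On day 14 the log2 difference was 0.03 in Atro (95% interval -0.19 to 0.26), -0.26 in A66QC (-0.48 to -0.03, adjusted p = 0.0987) and -0.17 in A75QN (-0.39 to 0.06, adjusted p = 0.296). The 3 A66QC arrays of day 14 lay below all 3 Control arrays, while those of A75QN and Atro overlapped with Control. In those comparisons 4.18%, 17.9% and 15.6% of all probe sets were called in Atro, A66QC and A75QN. On day 0, before induction, the 3 Atro arrays lay above all Control arrays, with a log2 difference of 0.24 (0.01 to 0.46, adjusted p = 0.349). The A66QC difference of day 14 passed the threshold with array weights, in a fit of the compared groups alone and without the first Control array of that day (-0.34).

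The other 3 eys probe sets were dim and did not follow the representative. Probe set 1630032_at, whose mean over all arrays was 6.45, moved the opposite way with age. In Control it gave 6.27, 6.23 and 6.21 on day 0, 6.48, 6.49 and 6.43 on day 2, and 6.58, 6.39 and 6.54 on day 14, a log2 difference of 0.27 from day 0 to day 14 (adjusted p = 2.87e-05). In Atro it gave 6.29, 6.35 and 6.23 on day 0 and 6.67, 6.71 and 6.68 on day 14, a log2 difference of 0.39 (adjusted p = 4.57e-08). Its rise between these days was called in all 4 genotypes, and its highest array stood at 6.71. On day 0 its group means, at 6.24 to 6.33, were near background in every genotype. From day 2 to day 14 its log2 difference in A66QC was -0.11 (adjusted p = 0.134), a fall that was not called. On day 14 it was higher in Atro than in Control by 0.18 (adjusted p = 0.019) and lower in A66QC than in Atro (log2 difference -0.24, adjusted p = 0.000851) and than in A75QN (-0.16, adjusted p = 0.0255). Its change from day 2 to day 14 was also lower in A66QC than in Atro, with a difference of change of -0.26 (adjusted p = 0.0375). Probe sets 1627703_at and 1632560_at had means of 6.01 and 6.00 over all arrays, below the lowest array median, and neither was called from day 0 to day 14 in any genotype. Which transcripts the 4 probe sets match is not used here, so the fall of eys with age is a statement on 1633714_at.

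**Figure D2:**
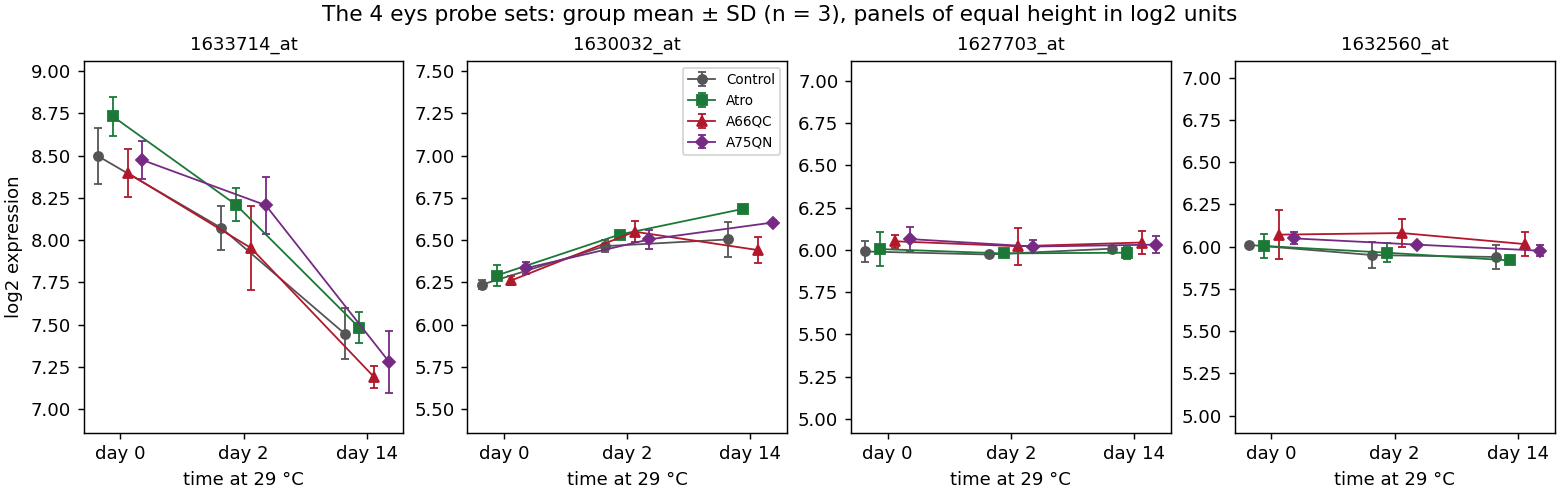
Log2 expression (group mean ± SD, n = 3 arrays) of the 4 eys probe sets against days at 29 °C, in panels of equal height in log2 units, with a colour and marker for each genotype. The representative 1633714_at falls with age in every genotype, and the dimmest probe sets stay near 6. From a level near the array medians, 1630032_at rises slightly between days 0 and 14, with a lower mean on day 14 than on day 2 in A66QC.

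The adhesion protein gene chp did not change by a called amount in Control flies and fell between days 2 and 14 in all 3 transgenic lines, wild-type Atro included. In Control its level was 11.59, 11.96 and 11.81 on day 0, 12.00, 11.76 and 11.93 on day 2, and 11.68, 11.94 and 11.70 on day 14, so all ages overlapped. In Atro it was 12.12, 11.91 and 12.21 on day 0, 12.08, 11.88 and 12.05 on day 2, and 11.65, 11.52 and 11.62 on day 14. All 3 Atro arrays of day 14 lay below every younger Atro array. In A66QC it was 12.08, 11.94 and 12.20 on day 0, 11.86, 11.98 and 12.31 on day 2, and 11.69, 11.52 and 11.71 on day 14. In A75QN it was 12.00, 11.87 and 11.97 on day 0, 11.96, 11.92 and 11.92 on day 2, and 11.50, 11.36 and 11.56 on day 14. Both polyQ lines showed the same layering as Atro, with day 14 below and days 0 and 2 mixed.

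From day 0 to day 14 chp fell by 0.48 on the log2 scale in Atro (SE 0.10, adjusted p = 0.000288), by 0.43 in A66QC (adjusted p = 0.00101) and by 0.47 in A75QN (adjusted p = 0.000331). The Control difference was -0.01 (95% interval -0.22 to 0.19, adjusted p = 0.943). From day 2 to day 14 the log2 differences were -0.41 in Atro (adjusted p = 0.0031), -0.41 in A66QC (adjusted p = 0.00357) and -0.46 in A75QN (adjusted p = 0.0013), against -0.12 in Control (adjusted p = 0.447). Between days 0 and 14 31.5%, 29.5%, 27.2% and 31.3% of all probe sets were called in Control, Atro, A66QC and A75QN. Between days 2 and 14 the shares were 13.5%, 19.9%, 15.1% and 16.1% in the same order. No change between days 0 and 2 was called for chp in any genotype, with log2 differences between -0.07 in Atro and 0.11 in Control. A fall that is called in a line and not in Control is not shown to differ between them, and the difference itself was tested. The change of chp from day 0 to day 14 in a line minus that in Control was -0.47 in Atro (SE 0.14, adjusted p = 0.0892), -0.42 in A66QC (adjusted p = 0.16) and -0.46 in A75QN (adjusted p = 0.0771). The A75QN difference passed with the replicate block. As deposited none of the 3 was called, among comparisons that called 2.11%, 2.29% and 3.09% of all probe sets. With quantile normalization they were -0.37, -0.26 and -0.29 and were all called, and with cyclic loess -0.32, -0.24 and -0.35, also called. Under these scalings chp changed in Control as well, with log2 differences from day 2 to day 14 of -0.27 and -0.32.

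On a given day chp differed from Control by a called amount in 1 of 9 comparisons. On day 14 the A75QN arrays, at 11.36 to 11.56, lay below the Control arrays, at 11.68 to 11.94, and the log2 difference was -0.30 (SE 0.10, 95% interval -0.50 to -0.09, adjusted p = 0.0415). This call, in a comparison that called 15.6% of all probe sets, was lost in 6 of the 14 alternatives. Quantile normalization gave -0.07 and cyclic loess -0.10, and the value was -0.21 without the second Control array of day 14, which is also what leaving out the arrays of outlying spread gave. The call was lost too without the first or the second A75QN array of that day. The Atro arrays of day 14 also lay below every Control array, with a log2 difference of -0.18 (95% interval -0.38 to 0.03, adjusted p = 0.487), and the A66QC arrays overlapped with Control (-0.13, adjusted p = 0.345). On day 0, with the transgenes still repressed, the log2 difference from Control was 0.29 in Atro (95% interval 0.09 to 0.50, adjusted p = 0.111), 0.29 in A66QC (0.08 to 0.49, adjusted p = 0.0634) and 0.16 in A75QN (-0.04 to 0.36, adjusted p = 0.352). These were not called as deposited. The A66QC difference was called in 8 of 14 alternatives, among them the replicate block (adjusted p = 0.0415), and all 3 lines were called with quantile normalization (0.27, 0.27 and 0.21) and with cyclic loess (0.24, 0.28 and 0.25). Of all probe sets, 4.37%, 10.9% and 7.04% were called on day 0 in Atro, A66QC and A75QN.

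The apical determinant crb was lower in both polyQ lines than in Control and than in Atro on day 14. Its level in A75QN was already below that in Atro by a called amount on day 0, as given below. In Control its level on day 14 was 9.27, 9.54 and 9.51, and in Atro it was 9.40, 9.23 and 9.27. In A66QC it was 8.93, 8.93 and 8.78, and in A75QN it was 8.95, 8.97 and 9.08. All 6 polyQ arrays lay below all 6 arrays of Control and Atro. Against Control crb was lower in A66QC by a log2 difference of -0.56 (SE 0.09, 95% interval -0.75 to -0.37, adjusted p = 4.51e-05) and in A75QN by -0.44 (-0.63 to -0.25, adjusted p = 0.00111). These are levels that fell by 32.2% and fell by 26.3% relative to Control. In Atro the difference was -0.14 (-0.32 to 0.05, adjusted p = 0.597).

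Both polyQ differences from Control were called in all 14 alternatives, and quantile normalization brought them to -0.36 and -0.27. Of all probe sets, 17.9% and 15.6% were called in these comparisons, so a call at this age was not rare. Over the brighter 9384 probe sets, to which crb belongs, the median log2 difference from Control on day 14 was -0.12 in A66QC and -0.09 in A75QN, while over all probe sets it was 0.01 and 0.02. Against Atro, crb on day 14 was lower by a log2 difference of -0.42 in A66QC (95% interval -0.61 to -0.24, adjusted p = 0.00322) and -0.30 in A75QN (-0.49 to -0.12, adjusted p = 0.033). These comparisons called 5.86% and 9.29% of all probe sets. The A66QC difference was called in all 14 alternatives, and the A75QN difference was lost in 5 of them, among them quantile normalization (-0.17). For chp and the eys probe set 1633714_at no difference from Atro was called on any day. For that eys probe set the difference of A66QC minus Atro on day 0 was -0.33 (95% interval -0.56 to -0.11, adjusted p = 0.0505, with no overlap), and it was called in 6 of 14 alternatives, among them the replicate block (adjusted p = 0.043). The comparisons with Control share its arrays, as those with Atro share theirs, so they are not independent of each other.

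On days 0 and 2 crb did not differ from Control by a called amount in any line. On day 0 its level was 9.38, 9.45 and 9.66 in Control and 9.62, 9.47 and 9.60 in Atro. It was 9.33, 9.22 and 9.46 in A66QC and 9.28, 9.19 and 9.31 in A75QN. The A75QN arrays thus lay below all Control arrays before induction, with a log2 difference of -0.24 (95% interval -0.42 to -0.05, adjusted p = 0.122). Against Atro the A75QN difference of day 0 was -0.31 (adjusted p = 0.0278) and was called, beside -0.30 on day 14. That day 0 comparison called 11.3% of all probe sets, and the call was lost in 6 of 14 alternatives. For A66QC the difference from Atro on day 0 was -0.23 (adjusted p = 0.106), where 9.36% were called, beside -0.42 on day 14. On day 2 the level was 9.21, 9.02 and 9.24 in Control and 9.33, 9.10 and 9.19 in Atro. It was 8.90, 9.00 and 9.31 in A66QC and 9.18, 9.26 and 9.05 in A75QN, and all 4 groups overlapped. The shares of all probe sets called on day 2 were 3.63%, 3.44% and 4.68% for Atro, A66QC and A75QN against Control, and 0.517% and 2.12% for A66QC and A75QN against Atro. Without the arrays of outlying spread, an alternative chosen after seeing the data, crb on day 2 was lower in A66QC than in Control (-0.27, adjusted p = 0.0328) and than in Atro (-0.31, adjusted p = 0.0181).

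Over time crb fell and rose again in Control, and in A66QC it fell with no called return. In Control it was lower on day 2 than on day 0 (log2 difference -0.34, SE 0.09, adjusted p = 0.00589) and higher on day 14 than on day 2 (0.28, adjusted p = 0.0358), so that day 14 overlapped with day 0 (-0.06, adjusted p = 0.708). The later Control rise was lost in 7 of 14 alternatives, with values down to 0.15. In Atro crb was lower on day 2 than on day 0 (-0.36, adjusted p = 0.00514), and its difference from day 2 to day 14 was 0.10 (adjusted p = 0.525). In A66QC it was lower on day 2 (-0.26, adjusted p = 0.0411) and did not return, with -0.19 from day 2 to day 14 (adjusted p = 0.193) and -0.46 from day 0 to day 14 (adjusted p = 0.000208). In A75QN the steps were -0.10 and -0.16, neither called, and the difference from day 0 to day 14 was -0.26 (adjusted p = 0.0283). The day 0 to 14 fall of A66QC was called in all 14 alternatives, while those of Atro (-0.26, adjusted p = 0.0277) and A75QN were each called in 10, and the day 0 to 2 fall of A66QC in 8. Between days 0 and 2 22.2%, 15.7%, 18.1% and 19.7% of all probe sets were called in Control, Atro, A66QC and A75QN. In the same order the shares were 13.5%, 19.9%, 15.1% and 16.1% between days 2 and 14. Between days 0 and 14 they were 31.5%, 29.5%, 27.2% and 31.3%.

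The change of crb from day 2 to day 14 in A66QC minus that in Control was -0.48 (SE 0.13, 95% interval -0.74 to -0.21, adjusted p = 0.0362). It was 1 of 10 planned differences of change for crb and the only one called, and the call was lost in 10 of 20 alternatives, with -0.23 without the arrays of outlying spread and -0.36 without the third A66QC array of day 2. In A75QN the same difference was -0.45 (-0.71 to -0.18, adjusted p = 0.0561) and passed the threshold in 10 of 20 alternatives. In Atro it was -0.19 (-0.45 to 0.08, adjusted p = 0.743). Against Atro instead of Control the difference was -0.29 in A66QC (adjusted p = 0.462) and -0.26 in A75QN (adjusted p = 0.529). These contrasts, from day 2 to day 14, called 1.41%, 3.12% and 2.86% of all probe sets for Atro, A66QC and A75QN against Control, and 1.35% and 1.6% for A66QC and A75QN against Atro. From day 0 to day 14 the change of crb in Atro minus that in Control was -0.21 (adjusted p = 0.714). The same difference was -0.40 in A66QC (adjusted p = 0.132) and -0.20 in A75QN (adjusted p = 0.604). That of A66QC was called in 4 of 20 alternatives. As deposited none was called, in contrasts that called 2.11%, 2.29% and 3.09% of all probe sets for Atro, A66QC and A75QN. From day 0 to day 2 no difference of change was called for eys, chp or crb, in contrasts that called 1.35%, 1.32% and 2.04% of probe sets against Control in the same order, and 0.288% and 1.45% against Atro. For the eys probe set 1633714_at no difference of change between a line and Control or Atro was called, and the largest against Control was -0.30 from day 2 to day 14 in A75QN minus Control (95% interval -0.62 to 0.02, adjusted p = 0.354).

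**Figure D3:**
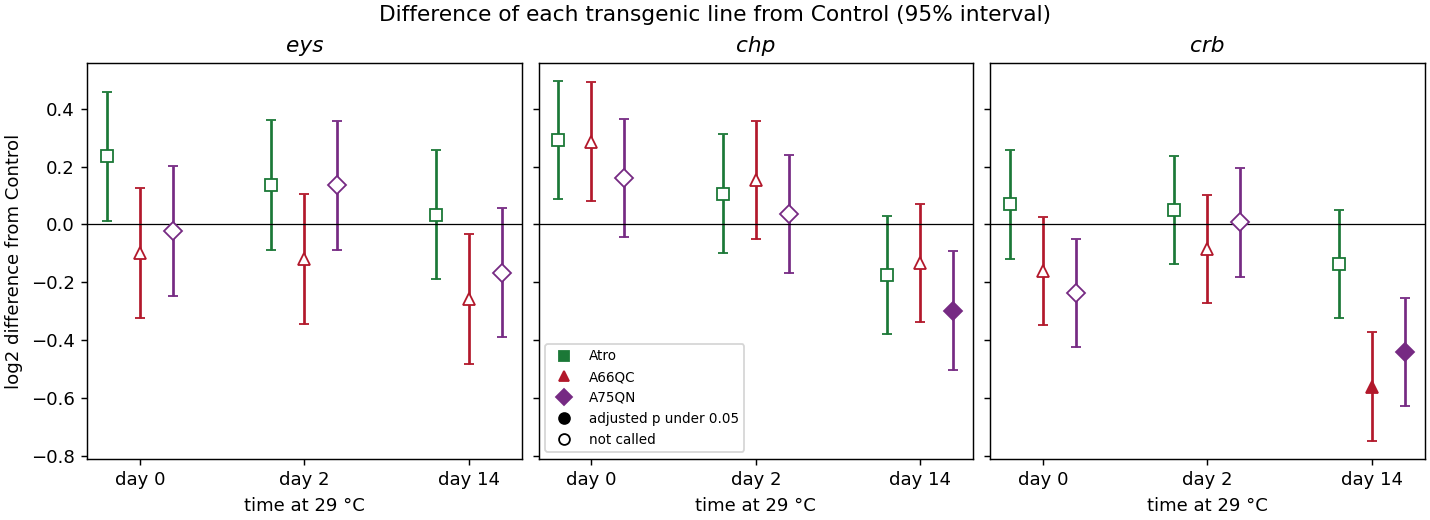
Log2 difference of each transgenic line from Control for eys, chp and crb on days 0, 2 and 14, with 95% intervals from the fit over all arrays; filled markers passed an adjusted p of 0.05 and open ones did not. For crb both polyQ lines lie below Control on day 14, at -0.56 and -0.44, for chp the A75QN line does, at -0.30, and for eys all markers are open.

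No difference between the 2 polyQ lines was called for the representative probe set of any of the 3 genes, while the dim eys probe set 1630032_at was called on day 14, as given above. On day 14 the log2 difference of A66QC minus A75QN was -0.12 for crb (95% interval -0.31 to 0.07, adjusted p = 0.544), although the arrays of the lines did not overlap. It was 0.16 for chp (-0.04 to 0.37, adjusted p = 0.404) and -0.09 for eys (-0.32 to 0.13, adjusted p = 0.753). Of all probe sets 6.01%, 2.88% and 8.18% were called between the lines on days 0, 2 and 14. On day 2 the eys difference was -0.25 (-0.48 to -0.03, adjusted p = 0.279), and it was called in 2 of 14 alternatives, at -0.39 without the third A66QC array of that day and without the arrays of outlying spread. These intervals do not show that the lines are alike.

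Ranked over the 12 groups, the 3 genes had separate orders. For eys the order followed age, from Atro on day 0 at 8.73 ± 0.11 (SD, n = 3) down to A66QC on day 14 at 7.19 ± 0.06, and all 4 groups of day 14 stood below all others. Of the 11 pairs of neighbours in that order 9 overlapped. The gaps were between Atro and Control on day 0 and between A66QC on day 2 and Atro on day 14. For chp all 11 neighbouring pairs overlapped, from Atro on day 0 at 12.08 ± 0.15 to A75QN on day 14 at 11.48 ± 0.10, and the 3 lines held both ends of the order with Control between them. For crb the order ran from Atro on day 0 at 9.57 ± 0.08 to A66QC on day 14 at 8.88 ± 0.09, with A75QN on day 14 next to last at 9.00 ± 0.07. Only these last 2 neighbours did not overlap. Across the 12 group means, Pearson's r was 0.80 between eys and chp, 0.61 between eys and crb and 0.37 between chp and crb, as a description of groups that share genotypes and ages.

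The genes whose 12 group means ran most like those of each member were taken from 7613 genes with a mean above the highest array median. For eys they were CG6329 (r = 0.986), trol (r = 0.985) and HemK1 (r = 0.980). trol encodes perlecan, a secreted basement membrane proteoglycan, and fell from day 0 to day 14 by 1.15, 1.43, 1.14 and 1.37 on the log2 scale in Control, Atro, A66QC and A75QN. Its Control arrays went from 9.49, 9.78 and 9.73 on day 0 to 8.39, 8.55 and 8.61 on day 14. For chp the likeness was weaker, with CG15922 (r = 0.930), CG6000 (r = 0.909) and the cuticle protein gene Cpr65Au (r = 0.904). For crb they were kst (r = 0.965), CG12581 (r = 0.958) and sl (r = 0.954). sl encodes a phospholipase C gamma, and kst encodes the heavy beta spectrin that links Crumbs to the cortical actin network. These values are over 12 group means each, and with so many genes compared some high r is found for any gene.

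Of 12 neighbours and partners of the members that were chosen by name, 9 had a representative and the other three (ninaE, ninaC and norpA) were not used here. Among those that bind or support Crumbs, kst was lower on day 14 in both polyQ lines. The Control arrays stood at 8.13, 8.33 and 8.24, those of A66QC at 7.93, 7.96 and 7.96, and those of A75QN at 7.98, 7.94 and 8.02, so neither line overlapped with Control. The log2 difference from Control was -0.29 in A66QC (SE 0.08, adjusted p = 0.0135) and -0.25 in A75QN (adjusted p = 0.0332), and -0.05 in Atro (adjusted p = 0.881). For sdt (stardust), the scaffold that binds the Crumbs tail, the differences were -0.25 in A66QC (adjusted p = 0.0778) and -0.20 in A75QN (adjusted p = 0.175), neither called. Patj, a scaffold that binds Stardust, was lower in A75QN (-0.20, adjusted p = 0.0253) and at -0.11 in A66QC (adjusted p = 0.202). veli, the Lin-7 scaffold of the same complex, was at -0.09 in A66QC and 0.07 in A75QN, neither called. On day 14 17.9% and 15.6% of all probe sets were called against Control in A66QC and A75QN. The median log2 difference over the brighter probe sets was -0.12 and -0.09 in these comparisons. All 9 partner genes were read as deposited only, without the alternatives.

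In the neighbouring apical kinase complex, aPKC and par-6 were lower in A66QC on day 14, by log2 differences of -0.45 (adjusted p = 0.0066) and -0.23 (adjusted p = 0.0445). In A75QN they were at -0.09 and 0.02, not called. Moe, which encodes Moesin, a linker of membrane proteins to actin, was lower in A66QC (-0.35, adjusted p = 0.00446) and at -0.14 in A75QN (adjusted p = 0.235). prom, which encodes the Prominin partner of Eyes shut, was at 0.00 in A66QC, -0.06 in A75QN and -0.03 in Atro. trp, the light-activated channel of the microvilli, was at -0.16 in A66QC and -0.15 in A75QN, not called. None of the 9 was called in Atro on day 14, where 4.18% of all probe sets were called against Control. Between the polyQ lines on day 14, the difference of A66QC minus A75QN was -0.35 for aPKC (adjusted p = 0.0524), -0.25 for par-6 (adjusted p = 0.054) and -0.20 for Moe (adjusted p = 0.16), and none of the 9 was called. That comparison called 8.18% of all probe sets. At such shares a lack of calls among 9 genes is not particular to them.

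**Figure D4:**
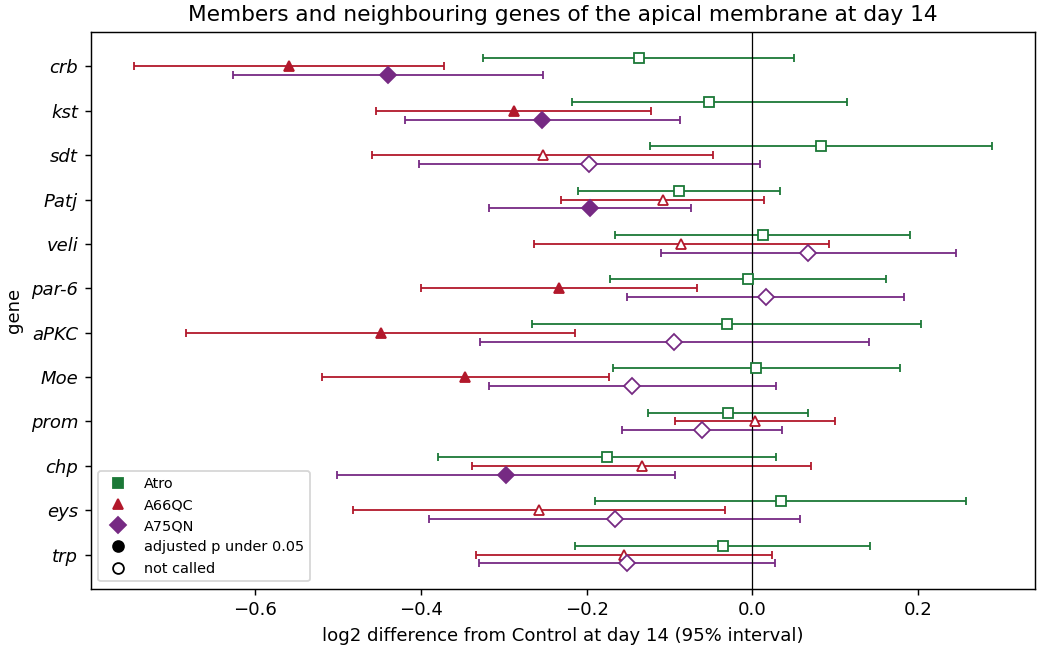
Log2 difference from Control on day 14, with 95% intervals, of crb, chp and eys and of 9 genes of their protein partners and neighbours, for the lines Atro, A66QC and A75QN; filled markers passed an adjusted p of 0.05. crb has the lowest values of the plotted genes in both polyQ lines, kst is lower in both, and aPKC, par-6 and Moe are lower in A66QC.

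Lists of related genes were read beside the members and counted without them. A list for apical polarity and adherens junctions, which also held genes of the basolateral side and the septate junction, had 20 measured genes. Of these, 13 were lower than Control and 0 higher in A66QC on day 14. The median log2 difference was -0.29 beside 0.01 for all probe sets and -0.12 for the brighter ones. In A75QN 7 were lower and 0 higher (median -0.20 beside 0.02 and -0.09), and in Atro 2 were lower and 0 higher (median -0.07 beside 0.00 and -0.04). All the lists stand beside the 17.9%, 15.6% and 4.18% of all probe sets called on day 14 in A66QC, A75QN and Atro. The genes of this list with the smallest adjusted p in A66QC were dlg1, a scaffold of the basolateral side and synapses (-0.72, adjusted p = 1.9e-07), and Nrx-IV and sinu, of the septate junction (-0.51 and -0.47). dlg1 was lower in Atro too (-0.57, adjusted p = 2.29e-05), and in A75QN it was at -0.07. The rhabdomere list, which also held genes of the actin cytoskeleton, had 16 measured genes. Of these, 8 were lower and 0 higher in A66QC on day 14 (median -0.24). In A75QN 2 were lower and 0 higher on day 14 (median -0.15), and in Atro 0 were called (median -0.01). The leading ones in A66QC were sas, an apical cell surface protein (-0.59, adjusted p = 7.21e-05), cpb, a subunit of actin capping protein (-0.33, adjusted p = 0.000804), and shot, a linker of actin and microtubules (-0.44, adjusted p = 0.00236).

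These counts moved with the scaling. With quantile normalization the polarity list had 8 lower and 0 higher in A66QC (median -0.13) and 2 lower and 4 higher in A75QN (median -0.04). Over all probe sets the median under that scaling was 0.01 in each polyQ line. The shares of all probe sets given for the lists are for values as deposited. Quantile counts, here and for the markers below, therefore stand without a share of their own. The rhabdomere list had 4 lower and 0 higher in A66QC (median -0.06) and 1 lower and 2 higher in A75QN (median 0.03). crb itself stayed lower in both lines under that scaling, as given above.

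Markers of photoreceptors and other cells differed on day 14 as well, and their part in the member results was not tested. Of 15 measured phototransduction genes, 8 were lower in A66QC (median -0.25), 3 in A75QN (-0.17) and 2 in Atro (-0.18), with 0 higher in each line. Their mean level per array lay at 11.17 to 11.37 in Control, at 10.98 to 11.05 in Atro, at 10.86 to 10.93 in A66QC and at 10.88 to 10.96 in A75QN, with none of the 15 near background in any of these groups. With quantile normalization 6 were lower and 1 higher in A66QC (median -0.09), 2 lower in A75QN (median 0.00) and 5 lower in Atro (median -0.10). laza, a lipid phosphatase of the visual cascade, was lower by -1.55 in A66QC, -1.82 in A75QN and -0.89 in Atro, and rdgB, a lipid transfer protein of photoreceptors, by -0.55 and -0.69 in the polyQ lines. Of 6 lens and pigment cell genes 5 were lower in each polyQ line (medians -1.49 and -1.40) and 3 in Atro. On day 14 4 of these 6 were near background in A66QC, 3 in A75QN, 2 in Atro and 1 in Control. Of 9 neuronal genes 7 were lower in A66QC (median -0.50), 2 in A75QN (-0.18) and 1 in Atro (-0.24), and of 7 glial genes 4, 3 and 1 were lower, with 1 higher in A75QN. The neuronal genes already differed before induction, with 7 of 9 lower in A66QC on day 0 (median -0.49), 2 in A75QN (-0.14) and 0 in Atro (-0.12). Of all probe sets, 10.9%, 7.04% and 4.37% were called on day 0 in the same order. The medians over the brighter probe sets were -0.08, -0.08 and 0.01. With quantile normalization the neuronal list had 6 lower in A66QC, 0 lower and 1 higher in A75QN and 3 lower in Atro on day 14, and the glial list 3, 3 and 2 lower with 2, 3 and 2 higher. Of 7 muscle genes 1 was higher in A66QC (median 0.22), 0 were called in A75QN (0.07) and 1 was higher in Atro (0.20), against 5, 4 and 3 higher with quantile normalization. Of 15 sense organ genes 3 were higher and 1 lower in A66QC and 0 were called in the other lines, and of 7 fat body genes 1 was higher in A66QC and in Atro and 1 lower in A75QN. Near background on day 14 were 11 of the 15 sense organ genes in Control, Atro and A66QC and 10 in A75QN. The fat body list had 2 such genes in each group of that day. In whole heads, fewer cells of a type and less RNA per cell cannot be told apart. The 3' to 5' difference of the GAPDH control probe sets, a measure of RNA integrity, averaged 2.32, 2.53, 2.66 and 2.31 in Control, Atro, A66QC and A75QN on day 14, and its part was not tested either. It also differed between ages, with group means of 1.90 to 2.03 on day 0, 2.28 to 2.54 on day 2 and 2.31 to 2.66 on day 14, as eys did, and its part in the fall of eys with age was not tested.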

How the data were processed

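The values were the deposited log2 expression values of 36 arrays, 1 per probe set, made by the authors in R, whose version was 2.11.0 per the submitters' processing notes. How background was corrected, probes summarized and arrays normalized is unstated in these sources. Arrays have no read depth; their number and signal over background limit the precision. Of the probe sets, 183 controls were set aside, and 18769 were tested.

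A linear model with 12 group means was fitted to all arrays with limma 3.58.1 in R 4.3.3 (24 residual and 6.49 prior degrees of freedom). Tests were two-sided, with p-values adjusted by Benjamini-Hochberg over all probe sets of a contrast, and every adjusted p comes from this limma fit. The contrasts were lines against Control and Atro, the polyQ lines, days within a genotype, and differences of change. Those from day 0 to 14 were added after seeing the data. The model was tested on simulated data.

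The members, lists and tests were chosen with earlier results of these data known. Named genes were the members, Gug, 12 partners, per list the 3 genes of smallest adjusted p in A66QC against Control on day 14, and per member the 3 genes of most similar group means. Alternatives were quantile and cyclic loess normalization, the brighter probe sets, the compared groups alone, array weights, a trended and robust prior, the replicate block, the other eys probe sets and each replicate left out. The fit of the array weights stopped before it converged. It called as many as 12477 probe sets for Atro from day 0 to 2, beside 2951 in the main fit, so calls gained with it carry little weight. Leaving out the 6 arrays of outlying spread was an alternative chosen after seeing the data. Of the lists, only genes with a representative were used. No sequences are shown. Plots were made in Python 3.11.15 with matplotlib 3.10.9.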

Additional observations from a re-analysis of the deposited data

Results flagged for a closer look

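The change of crb from day 2 to day 14 differed between A66QC and Control by a test of the difference itself. It was -0.48 on the log2 scale (SE 0.13, adjusted p = 0.0362 by limma), from a rise in Control (0.28, adjusted p = 0.0358) and a difference of -0.19 in A66QC (adjusted p = 0.193). The call was lost in 10 of 20 alternatives, over which the value ranged from -0.56 to -0.23. The same difference in A75QN was -0.45 (adjusted p = 0.0561). For the change of crb from day 0 to day 14, A66QC minus Control was -0.40 (adjusted p = 0.132) and was not called.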

How the results depend on the processing

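Called falls of eys with age and the lower crb of A66QC on day 14, against Control and Atro, and of A75QN against Control kept their direction and their side of the threshold in all 14 alternatives that kept the probe set, except eys between days 0 and 2 in A66QC (array weights). Results on days 2 and 14, and from day 0 to 14, that crossed the threshold follow by alternative, as log2 differences. For the other differences and intervals, 1184 values in these alternatives kept their side of the threshold, 65 gained a call, such as crb from day 2 to 14 in A66QC with quantile normalization (-0.16), and 23 lost one. Quantile normalization gave chp in A75QN minus Control on day 14 at -0.0736 and crb in A75QN minus Atro at -0.17, both lost, and crb in Control from day 0 to 14 at -0.17, gained. Cyclic loess gave -0.10 for the chp difference (lost), and -0.17 for chp and -0.16 for crb in Control from day 0 to 14 (both gained). The change of crb from day 2 to 14 in A75QN minus Control was gained with quantile normalization (-0.30), cyclic loess (-0.31), array weights (-0.38), and at -0.45 with brighter probe sets, compared groups alone, the trended and robust prior and the replicate block (adjusted p = 0.0411). In A66QC it was lost with array weights (-0.40), compared groups alone (-0.48) and without arrays of outlying spread (-0.23). With array weights eys in A66QC on day 14 was gained against Control (-0.27) and Atro (-0.29), and so with compared groups alone (-0.26 and -0.29). Without arrays of outlying spread, eys in A66QC was gained against Control on day 2 (-0.33) and against Atro on days 2 (-0.45) and 14 (-0.29), crb in A66QC on day 2 against Control (-0.27) and Atro (-0.31), and chp in A75QN minus Control on day 14 was lost (-0.21). The causes were not tested.

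Leaving out 1 array in turn gave -0.56 to -0.36 for the crb change in A66QC and -0.53 to -0.38 in A75QN, -0.34 to -0.18 for eys in A66QC minus Control on day 14, -0.34 to -0.21 for chp in A75QN minus Control, and -0.34 to -0.25 for crb in A75QN minus Atro. For crb from day 0 to 14 it gave -0.31 to -0.23 in Atro and -0.30 to -0.23 in A75QN. Among the other eys probe sets, 1630032_at turned the sign with age, except from day 2 to 14 in A66QC (-0.11, not called). From day 0 to 2 it gave 0.23, 0.24, 0.29 and 0.17 for Control, Atro, A66QC and A75QN, from day 2 to 14 0.0396 for Control, 0.15 for Atro and 0.0994 for A75QN, and from day 0 to 14 0.27, 0.39, 0.18 and 0.27 for the 4 genotypes. On day 14 it gave 0.18 for Atro minus Control and -0.24 for A66QC minus Atro. Probe set 1627703_at gave 0.0344, 0.0042, 0.0219 and 0.0113 from day 2 to 14 and 0.0166, -0.0215, -0.0074 and -0.033 from day 0 to 14 in the same order, none called. Probe set 1632560_at gave -0.0713, -0.086, -0.056 and -0.0729 from day 0 to 14, none called, and 0.0095 from day 0 to 2 in A66QC.

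Counts of called probe sets moved by over 1.5 times in some alternatives. On day 14 the 3365 of A66QC minus Control ranged from 1459 without the second Control array to 4223 with array weights, whose fit stopped before it converged, and the 2927 of A75QN minus Control from 1154 to 3189. On day 2 the 646 of A66QC minus Control ranged from 365 to 2955. Same-numbered arrays of different groups had deviations that correlated with r of -0.599 to 0.678 (median 0.034, 73 of 198 over 0.1). For arrays of different numbers r was -0.733 to 0.708 (median -0.021, 128 of 396 over 0.1). These ranges overlapped widely, and the numbers were not treated as pairs. The replicate block gained 4 of 129 calls, the crb change in A75QN (above), chp in A66QC minus Control on day 0 (0.29, adjusted p = 0.0415), eys in A66QC minus Atro on day 0 (-0.33, adjusted p = 0.043) and the change of chp from day 0 to 14 in A75QN minus Control (-0.46). Signal over background limits the 3 dim eys probe sets.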
